A study of Homo sapiens with 11 samples.

Results

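The genes described here separated 2 small cell lung carcinoma lines from lung fibroblasts and stood at nearly the same level in both carcinoma lines. They were chosen from 8 RNA-seq libraries, 3 of the fibroblast line MRC5 and, of the carcinoma lines, 3 of DMS153 and 2 of H209, on the scale of log2(FPKM + 1). FPKM divides the fragments of a gene by transcript length and by all mapped fragments in the library, and 1 was added before the logarithm. A gene was kept as a member when its lowest value in the 5 carcinoma libraries lay above its highest value in the 3 MRC5 libraries, or the reverse. The means of DMS153 and H209 also had to differ by less than 0.5 log2 units. Of 57815 listed genes, 13467 met the rule, 9504 of them higher (16.4% of all listed genes) and 3963 lower (6.85%) in the carcinoma lines. A further 6726 genes had no overlap between the carcinoma and MRC5 libraries but line means at least 0.5 apart, and in 37622 the libraries overlapped. These values chose the members, so every difference from MRC5 given here is a description without a test.

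Both DMS153 and H209 are permanent cultures derived from small cell lung carcinoma, and MRC5 is a noncancerous line of human lung fibroblasts. The study also mapped their chromosome folding by Hi-C. All 3 lines were grown alike, in RPMI medium with fetal bovine serum, and no group was treated. The labels number the RNA libraries of a line without saying whether they came from separate cultures, so a standard deviation (SD) here covers these libraries only and may be technical. Each group is 1 cell line, and a fibroblast line is not the cell of origin of the carcinoma, so line, lineage and malignancy cannot be told apart.

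Small cell lung carcinoma is a fast-dividing tumour of neuroendocrine character, in which the RB brake on E2F factors is typically lost and cells carry both epithelial and neuronal genes. Fibroblasts build and contract the extracellular matrix, divide under the control of cyclin D and growth factors, and respond to stiffness through YAP and TAZ. In cycling cells, E2F factors drive the genes of DNA replication, while the genes of mitosis are silenced in quiescence by the DREAM complex, which binds the CHR element, and are activated with help from NF-Y at CCAAT boxes.

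The markers went with the labels. All 9 fibroblast markers examined averaged at least 1 FPKM in MRC5, where they summed to 7730 to 8561 FPKM per library, and 2 of 9 did so in each carcinoma line. All 9 markers of small cell lung carcinoma did so in both carcinoma lines and none in MRC5, where INSM1, NEUROD1 and NKX2-1 were among those listed at 0. Markers of immune cells summed to 41.3 to 52.7 FPKM in MRC5 and 4.28 to 5.99 in the carcinoma libraries. Those of endothelial and mural cells summed to 56.9 to 61.9 and 7.39 to 16.6. Only 2 of 16 immune markers averaged at least 1 FPKM in MRC5, and 1 did so in each carcinoma line. CD3D and MS4A1 were listed at 0 in every MRC5 library. Of 14 endothelial and mural markers, 5 averaged at least 1 FPKM in MRC5, 3 in DMS153 and 2 in H209. In MRC5 both sums thus rested mainly on a few of the markers. The part of immune, endothelial and mural cells in the results was not tested. In bulk RNA, fewer cells of a type and less RNA per cell cannot be told apart. The median tested gene stood 0.55 log2 units higher in the carcinoma lines. MicroRNA loci held 38.2% to 42.3% of the summed FPKM in DMS153 and at most 0.0276% in the other lines. Depth, estimated from the deposited confidence intervals, was 0.934 to 1.59 times that of MRC5 replicate 1.

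A filter on low values, which asked 2 or more libraries to reach 1 FPKM, left 19066 tested genes. Among them were 6941 members, 4343 higher (22.8% of tested genes) and 2598 lower (13.6%), and the other 5161 higher and 1365 lower members did not pass. A member that passed through the group where it was high had to differ, so these counts support nothing. Without the limit on the line means, 9008 tested genes (47.2%) lay above MRC5 in all carcinoma libraries and 4304 (22.6%) below. Of these, 48.2% and 60.4% had line means within the limit. The gap between those shares was not seen where every line mean reached 1 FPKM, with 58.8% of 4800 higher and 58.2% of 2882 lower genes within it. A fit with limma over all tested genes called 6223 higher (32.6%) and 2786 lower (14.6%) at an adjusted p below 0.05 and at least 1 log2 unit, and used the same contrast as the rule. Under a median ratio scaling of the libraries the fit called 4466 higher and 4160 lower.

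Membership depended on how libraries were scaled, and 4 other scalings were examined. They divided each library by its median ratio to the others, quantile normalized all libraries, scaled each library to the same FPKM sum (TPM), or did the last without small RNA and mitochondrial genes. The all-gene median difference was then 0.14, 0.13, 0.52 and 0.71 log2 units, and tested members higher and lower numbered 3212 and 3760, 3008 and 3431, 2842 and 1951, and 4873 and 2153. The TPM scaling moved the median line difference from -0.04 to -0.60, and it shared the fewest members with the deposited scale, 1601 higher and 1377 lower. Members under all 4 numbered 846 higher (19.5% of those tested) and 1086 lower (41.8%). With the shift of the TPM scaling, a gene away from 0 stays within the line limit mainly when DMS153 lay above H209 on the deposited scale. Membership under all 4 thus reflects in part the direction of the line difference, or values near 0. It also depends on the shift against MRC5. The median ratio and quantile scalings kept 66.2% and 66.5% of higher tested members, and 93.9% and 93.8% of lower ones. Membership under all 4 is therefore no separate support for a gene.

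Tested members differed from MRC5 by a median of 1.09 log2 units in the higher direction and -1.13 in the lower. Differences of at least 3 log2 units were reached by 350 higher and 367 lower members, and of at least 5 by 44 and 117. The 2 line means of a member lay a median of 0.23 and 0.19 log2 units apart, and the median SD between libraries of 1 line was 0.06 to 0.10. In MRC5, 503 higher members were below 0.1 FPKM in every library, and 114 were listed at 0. In the carcinoma libraries 245 lower members were below 0.1 FPKM throughout and 17 were listed at 0. The deposited confidence intervals of the groups were apart for 82.2% of the higher and 82.3% of the lower tested members.

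**Figure D1:**
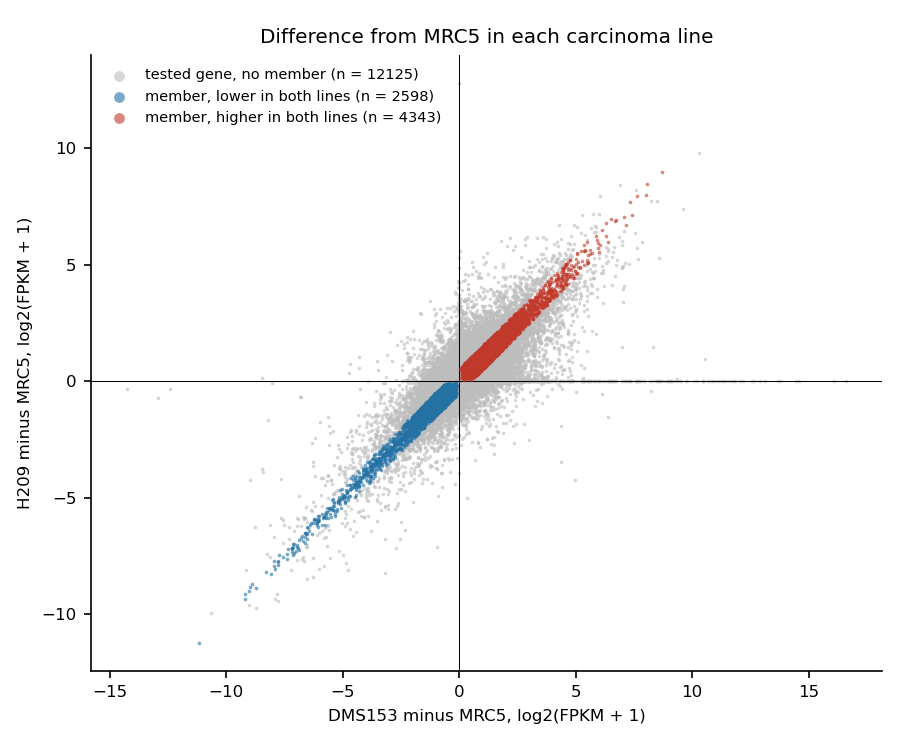
Each point is 1 of the 19066 tested genes, with its DMS153 minus MRC5 difference on the x axis and its H209 minus MRC5 difference on the y axis, both in log2(FPKM + 1); the 2 differences share the MRC5 libraries. The 4343 higher members (red) and 2598 lower members (blue) lie along the diagonal because the rule keeps line means within 0.5 log2 units, and they are plotted over the other 12125 tested genes (grey).

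At the edges of the rule the values were unremarkable. GPSM2, which orients the mitotic spindle, lay just inside the limit on line means at 42.2, 42.8 and 39.3 FPKM in DMS153, 28.5 and 29.5 in H209 and 1.33, 1.41 and 1.4 in MRC5. TRIP13, an ATPase of the spindle checkpoint, lay just outside it at 26, 27.7 and 23.5 FPKM in DMS153, 36.3 and 37.2 in H209 and 1.99, 3.16 and 2.5 in MRC5. Both were far above MRC5 and differed between the lines by 0.50 and -0.50 log2 units. At the edge of separation, COX7B, a subunit of cytochrome c oxidase, was kept as lower at 79.5, 81.1 and 81.8 FPKM in DMS153, 73.9 and 86.4 in H209 and 86.5, 98.4 and 87.1 in MRC5. STARD3, a cholesterol transfer protein, was left out at 25.3, 26.4 and 27.7 FPKM in DMS153, 26.1 and 21.4 in H209 and 27.7, 30.7 and 29.8 in MRC5. The highest carcinoma library of COX7B and the lowest of MRC5 were nearly equal, so membership at this edge says little about the size of a difference.

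The largest differences in the higher direction belonged to epithelial and neuroendocrine genes. CEACAM5 (ENSG00000105388.10, chromosome 19, 42212504 to 42233718 in hg19), the carcinoembryonic antigen of epithelial surfaces, stood at 364, 277 and 716 FPKM in DMS153, 511 and 495 in H209 and at 0 in all 3 MRC5 libraries. DMS153 varied most, with replicate 3 above both H209 libraries and replicates 1 and 2 below them. Another row, named CEA, overlaps this locus, and reads of these rows and of related CEACAM genes cannot be told apart. CHGA (ENSG00000100604.8, chromosome 14, 93389425 to 93401638), the granule protein chromogranin A, stood at 256, 219 and 348 FPKM in DMS153, 361 and 350.0 in H209 and 0.00456, 0 and 0.00395 in MRC5, a difference of 8.27 log2 units. EPCAM (ENSG00000119888.6, chromosome 2, 47572297 to 47614740), an epithelial adhesion molecule, was at 323, 253 and 294 FPKM in DMS153, 281 and 279 in H209 and 0.161, 0.123 and 0.0462 in MRC5, and its difference was 8.01. KIF1A, the motor that carries synaptic vesicle precursors, was at 211, 222 and 227 FPKM in DMS153, 277 and 265 in H209 and 0.169, 0.171 and 0.0134 in MRC5. In all of these genes the lowest carcinoma library was far above the highest MRC5 library.

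The other genes among the 15 largest were surface, granule and regulatory genes. SPINT2, a membrane inhibitor of serine proteases, stood at 224, 229 and 244 FPKM in DMS153, 289 and 296 in H209 and 0.423, 0.479 and 0.401 in MRC5. ST14, the protease matriptase that SPINT2 inhibits, stood at 83.9 ± 1.44 FPKM in DMS153 and 61.4 ± 1.78 in H209 (mean ± SD over libraries, here and below with n = 3 for DMS153 and MRC5 and n = 2 for H209) and below 0.1 FPKM in every MRC5 library. ICA1, an islet cell autoantigen of secretory granule membranes, stood at 163, 166 and 178 FPKM in DMS153, 142 and 139 in H209 and 6.88e-05, 0.000982 and 2.6e-05 in MRC5. It remained a member under all 4 other scalings examined, and DMS153 lay 0.26 log2 units above H209 on the deposited scale. NKX2-1, the transcription factor of lung and thyroid epithelium, stood at 67.6, 70.0 and 69.4 FPKM in DMS153, 86.3 and 88.6 in H209 and at 0 in all 3 MRC5 libraries. Below 0.1 FPKM in every MRC5 library, RASSF6, FXYD6 and MS4A8 stood at 96.8 to 152 FPKM, 98.2 to 121 FPKM and 121 to 143 FPKM in the carcinoma libraries. The noncoding RNA MIAT was at 134 to 173 FPKM in the carcinoma libraries and 0.254 to 0.444 in MRC5, the protease KLK11 at 48.5 to 73.7 FPKM in the carcinoma libraries and 0 to 0.0025 in MRC5 and the keratin KRT19 at 79 to 96.9 FPKM in the carcinoma libraries and 0.24 to 0.661 in MRC5.

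The lower direction was led by products of the matrix and by surface receptors. DCN (ENSG00000011465.12, chromosome 12, 91539025 to 91576900), the collagen-binding proteoglycan decorin, had the largest difference of all members, -11.20 log2 units. It stood at 0.108, 4.8e-05 and 0.0225 FPKM in DMS153, 0.000592 and 7.75e-05 in H209 and 2333, 2481 and 2389 in MRC5. COL1A1 (ENSG00000108821.9, chromosome 17, 48260650 to 48278993), the main chain of type I collagen, stood at 1.29, 0.801 and 0.955 FPKM in DMS153, 0.945 and 0.634 in H209 and 1087, 1217 and 1209.6 in MRC5. CD44 (ENSG00000026508.12, chromosome 11, 35160417 to 35253949), the hyaluronan receptor, stood at 1.65, 1.48 and 1.0 FPKM in DMS153, 1.52 and 1.36 in H209 and 1317, 1380.5 and 1412 in MRC5, and its 5 carcinoma values lay within a narrow band. CCND1 (ENSG00000110092.3, chromosome 11, 69455855 to 69469242), which encodes cyclin D1, stood at 0.654, 0.598 and 0.96 FPKM in DMS153, 0.675 and 0.573 in H209 and 356, 385 and 402 in MRC5, a difference of -7.83. Cyclin D1 and its kinases phosphorylate RB, so this gene belongs to cell cycle control and not to the matrix.

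Most of the remaining 15 were also genes of matrix and contraction. GREM1, a secreted BMP antagonist, stood at 479 ± 6.63 FPKM in MRC5 and below 0.5 FPKM in all 5 carcinoma libraries. IGFBP7, a secreted binding protein, stood at 0.836, 0.743 and 0.516 FPKM in DMS153, 1.08 and 0.756 in H209 and 787, 765 and 816 in MRC5. PTX3, a soluble pattern recognition protein, was at 0.154 to 0.276 FPKM in the carcinoma libraries and 254 to 265 in MRC5, and LOX, the enzyme that crosslinks collagen, at 0.114 to 0.237 FPKM in the carcinoma libraries and 222 to 274 in MRC5. NT5E, the surface enzyme CD73, was below 0.1 FPKM in all 5 carcinoma libraries and stood at 304 to 320.2 FPKM in MRC5. In MRC5, TAGLN stood at 1151 to 1435 FPKM, COL6A2 at 688 to 778 FPKM and MYL9, CAV1, COL3A1 and CCDC80 lower than both. In the carcinoma libraries TAGLN was at 3.96 to 5.3 FPKM, and the other 5 were below 1 FPKM. Chosen after its values were seen, RAB32, a small GTPase of organelle transport, was listed at 0 in all 5 carcinoma libraries and stood at 33, 37.3 and 30.6 FPKM in MRC5.

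**Figure D2:**
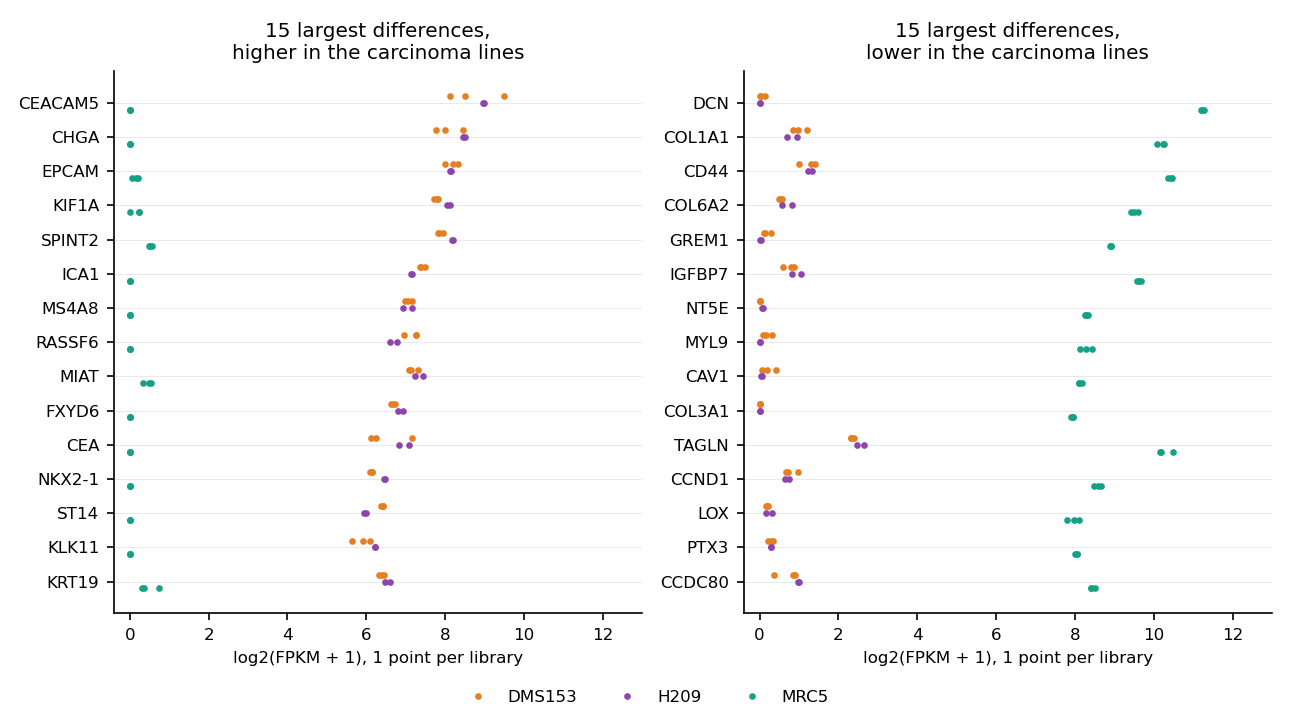
Each row is a gene and each point 1 library (orange DMS153, violet H209, green MRC5), on the x axis in log2(FPKM + 1); the left panel has the 15 higher members with the largest difference and the right panel the 15 lower ones. Points of both carcinoma lines sit together and far from MRC5 in every row, as the rule requires, and the widest spread within a line is that of CEACAM5 in DMS153 (277 to 716 FPKM).

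How much of a pathway the 2 lines shared differed between groups of genes. Of the 44 lists of genes examined, those of cell division gave many members: 24 of 44 tested genes of mitosis and the spindle and 24 of 44 of DNA replication, beside 22.8% of all tested genes. Of their genes above MRC5, 54.5% and 55.8% had line means within the limit. Over all tested genes above MRC5 this share was 48.2%, and 58.8% where every line mean reached 1 FPKM. Nearness of the 2 lines was thus not particular to these lists. The 2 neuroendocrine lists gave member shares near that of all tested genes. All 27 tested neuroendocrine transcription factors lay above MRC5 in every carcinoma library, beside 47.2% of all tested genes, but only 5 (18.5%) had line means within the limit. For neuroendocrine secretion and peptides these counts were 29 of 32 and 8 (25.0% of those tested). Of the genes above MRC5 in these 2 lists, 18.5% and 27.6% were within the limit. Epithelial genes had 36 of 36 above MRC5 and 17 members (47.2%). In the lower direction, 19 of 33 tested mesenchymal and repressor transcription factors and 12 of 22 collagens were members, beside 13.6% of all tested genes, and 11 of 37 matrix glycoproteins. For every list count below, the shares over all tested genes are 22.8% members higher and 13.6% members lower. Those without overlap are 47.2% above and 22.6% below MRC5.

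**Figure D3:**
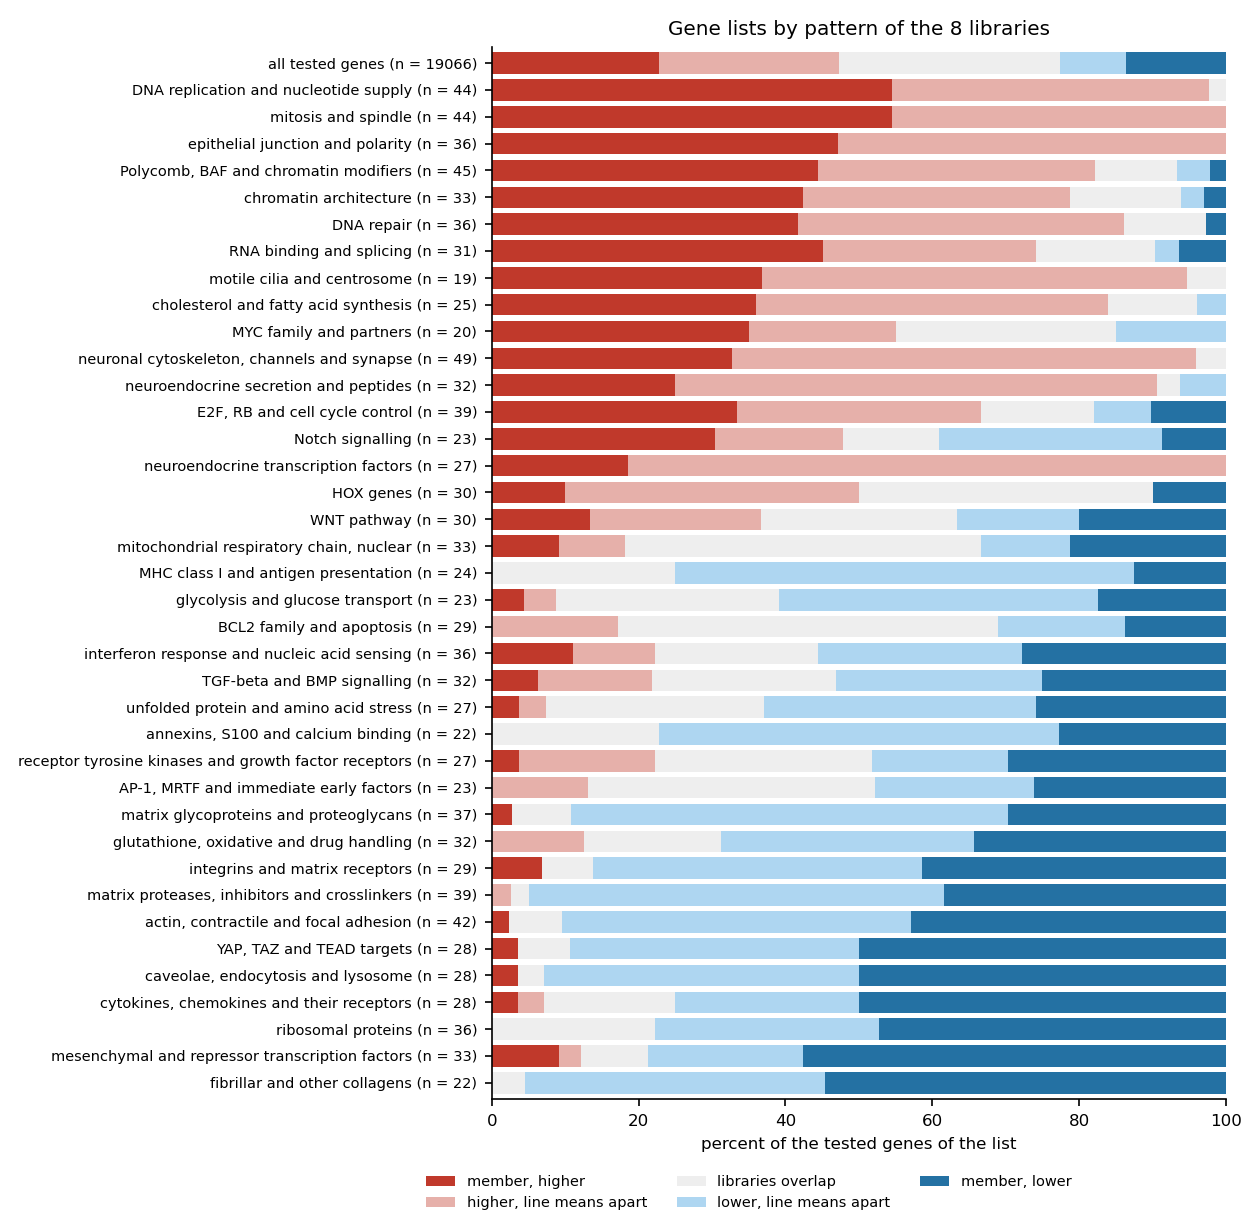
Each bar is a gene list with at least 19 tested genes, split along the x axis into the percent of its tested genes that were members higher (red), higher with line means at least 0.5 apart (pale red), overlapping (grey), lower with line means apart (pale blue) and members lower (blue); the top bar is all 19066 tested genes. Mitosis and neuroendocrine transcription factors are both wholly above MRC5, but 24 of 44 genes are members in the former and 5 of 27 in the latter.

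Genes of mitosis were higher in both carcinoma lines without exception among the 44 tested, and remained so under the 4 other scalings. The median difference over the 44 genes was 3.87 log2 units, beside 0.55 over all tested genes. Under the other scalings 17 to 23 of them were members. NUSAP1, which bundles spindle microtubules, stood at 114, 123 and 90.9 FPKM in DMS153, 143 and 154 in H209 and 3.79, 2.75 and 2.67 in MRC5. UBE2C, the ubiquitin-conjugating enzyme of the anaphase-promoting complex, stood at 97.4, 124 and 101 FPKM in DMS153, 139 and 146 in H209 and 4.06, 3.69 and 3.1 in MRC5. LMNB1, the nuclear lamin B1, was at 95.8 to 117 FPKM in the carcinoma libraries and 2.41 to 3.08 in MRC5. MYBL2, the transcription factor B-MYB that activates mitotic genes, was at 47.5 to 62.5 FPKM in the carcinoma libraries and 1.01 to 1.24 in MRC5. All 4 were present in MRC5 at low level. The libraries of the 2 carcinoma lines overlapped for LMNB1 and MYBL2, while H209 was above DMS153 for NUSAP1 and UBE2C. MKI67, TOP2A and FOXM1 were as clearly above MRC5 but were no members because the lines differed, with 101 ± 11.4 FPKM in DMS153 and 49.9 ± 3.17 in H209 for MKI67.

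The genes of DNA replication had a median difference of 2.82 log2 units, 43 of 44 lay above MRC5 (39 to 44 under the other scalings), and 24 were members (9 to 25). MCM2, a subunit of the replicative helicase, stood at 74.7, 83.8 and 69.5 FPKM in DMS153, 106 and 103 in H209 and 3.79, 3.15 and 3.59 in MRC5. MCM3, another subunit, stood at 87.2, 97.3 and 87.4 FPKM in DMS153, 105 and 121 in H209 and 6.11, 7.5 and 5.82 in MRC5. CDC45, which joins the helicase at origins, was at 34.2 to 38.4 FPKM in the carcinoma libraries and 1.08 to 1.87 in MRC5, and RFC3, of the clamp loader, at 19.8 to 25.5 FPKM in the carcinoma libraries and 0.93 to 1.29 in MRC5. The helicase subunits MCM4, MCM6 and MCM7 were members as well. MCM5 was above MRC5 but differed between the lines, at 43.1 ± 2.08 FPKM in DMS153 and 109 ± 4.07 in H209. DUT, which removes dUTP, was the gene that overlapped, at 35.5 ± 4.7 in DMS153, 93.5 ± 1.66 in H209 and 35.5 ± 2.0 FPKM in MRC5.

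Promoters of these 2 groups held different short sequence elements. Promoter windows of 300 bases, from 250 before to 50 after the start site, were taken from RefSeq (GRCh38.p14). They were matched by gene identifier, symbol or synonym for 12458 of 19066 tested genes, among them 2920 higher and 1805 lower members. They were searched on both strands for the CHR element TTTGAA, the CCAAT box CCAAT and an E2F site, spelled TTTCCCGC or TTTGGCGC. None of these spellings holds another, though matches may overlap in a sequence. Of 20 windows of mitosis members 15 (75.0%) held a CHR element, 17 a CCAAT box and 14 (70.0%) both. Over all tested genes these shares were 10.0%, 36.1% and 4.24%. Of 21 windows of replication members none held a CHR element, 11 a CCAAT box and 8 (38.1%) an E2F site, beside 3.45% of all tested genes. Replication genes that were no members had the E2F site in 8 of 18 windows (44.4%) and mitosis genes that were no members the CHR element in 11 of 18 (61.1%), so these elements were also frequent in genes of the same lists outside the members. Over all 27305 windows of the table, 15.4% held a CHR element, 35.7% a CCAAT box and 2.31% an E2F site. A match is a description of the letters and not of a bound site.

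**Figure D4:**
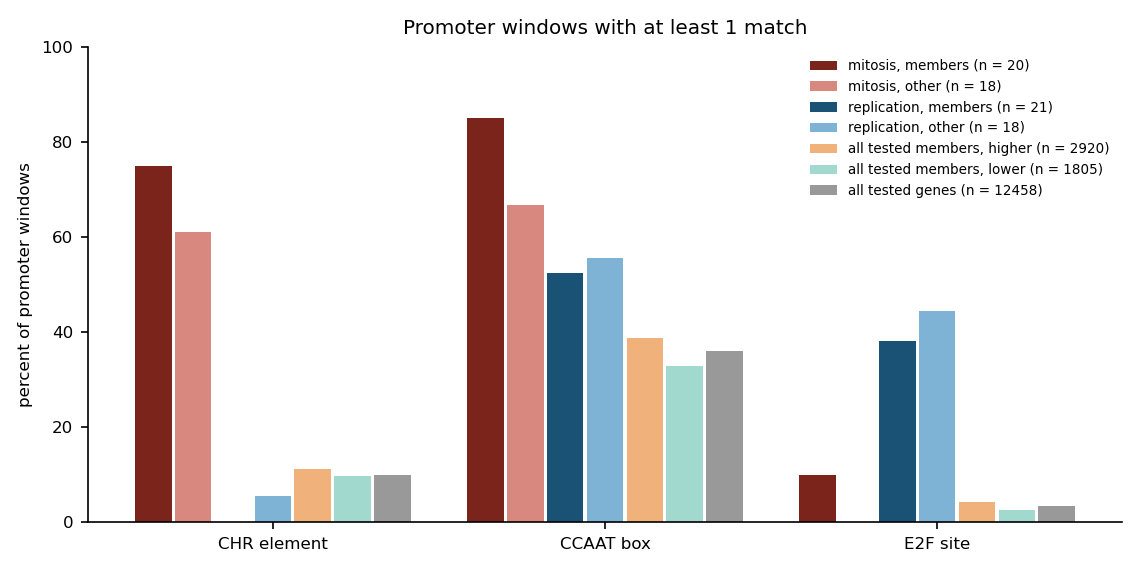
Bars give the percent of promoter windows with at least 1 match (y axis) to the CHR element, the CCAAT box and the E2F site for members and other genes of the mitosis and replication lists, all tested members and all 12458 tested genes with a window. The CHR element stands at 75.0% and 61.1% in the 2 mitosis groups and at 10.0% in all tested genes; the E2F site stands at 38.1% and 44.4% in the replication groups and at 3.45% in all tested genes.

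The windows of 4 mitosis members with the largest differences among those holding both elements are shown because they carry the pairing of CHR element and CCAAT box; CDC20, PLK1 and CDK1 were chosen for this after their values were seen. They lie at chr15:41332631-41332930 on the plus strand, chr1:43358731-43359030 on the plus strand, chr16:23678639-23678938 on the plus strand and chr10:60778081-60778380 on the plus strand, in that order. Capitals mark CHR elements (TTTGAA or TTCAAA) and CCAAT boxes (CCAAT or ATTGG), and in NUSAP1 also an E2F site (TTTGGCGC) and a TATA box (TATAAA).
NUSAP1: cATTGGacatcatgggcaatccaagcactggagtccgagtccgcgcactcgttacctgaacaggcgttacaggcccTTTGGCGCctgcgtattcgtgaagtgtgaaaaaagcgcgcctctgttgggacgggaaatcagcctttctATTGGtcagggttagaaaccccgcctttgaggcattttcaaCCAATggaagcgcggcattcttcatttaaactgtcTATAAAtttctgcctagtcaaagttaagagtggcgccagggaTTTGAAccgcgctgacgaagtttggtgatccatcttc
CDC20: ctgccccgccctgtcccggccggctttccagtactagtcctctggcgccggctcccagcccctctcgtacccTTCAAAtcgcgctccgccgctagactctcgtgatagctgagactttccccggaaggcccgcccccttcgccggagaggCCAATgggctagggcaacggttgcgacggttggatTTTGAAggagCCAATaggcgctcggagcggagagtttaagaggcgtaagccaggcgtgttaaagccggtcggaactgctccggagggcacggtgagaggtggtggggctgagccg
PLK1: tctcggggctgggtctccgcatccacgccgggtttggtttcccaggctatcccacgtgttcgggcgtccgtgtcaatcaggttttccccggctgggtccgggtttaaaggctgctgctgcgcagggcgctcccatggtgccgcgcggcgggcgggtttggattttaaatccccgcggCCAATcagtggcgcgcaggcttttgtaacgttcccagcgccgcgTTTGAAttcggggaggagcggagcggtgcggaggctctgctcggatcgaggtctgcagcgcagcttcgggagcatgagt
CDK1: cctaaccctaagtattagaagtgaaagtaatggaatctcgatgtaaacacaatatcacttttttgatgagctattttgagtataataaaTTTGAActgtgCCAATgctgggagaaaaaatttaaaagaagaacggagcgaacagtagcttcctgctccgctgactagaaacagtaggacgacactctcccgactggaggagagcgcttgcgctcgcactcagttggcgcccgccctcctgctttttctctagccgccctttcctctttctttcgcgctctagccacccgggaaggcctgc

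In PLK1, the polo-like kinase of mitotic entry, the CCAAT box begins 73 bases and the CHR element 29 bases before the start site. In CDC20, which activates the anaphase-promoting complex, a CHR element begins 65 and a CCAAT box 55 bases before it, with another of each further out. PLK1 stood at 56.7, 70.8 and 62 FPKM in DMS153, 48 and 50.1 in H209 and 1.49, 2.81 and 1.59 in MRC5, and remained a member under all 4 other scalings. CDC20 stood at 53.3, 70.2 and 55.5 FPKM in DMS153, 67.1 and 65.8 in H209 and 1.97, 2.97 and 1.71 in MRC5. CDK1, the kinase that starts mitosis, stood at 83.2, 81.2 and 67.5 FPKM in DMS153, 56.7 and 53.5 in H209 and 2.26, 2.27 and 3.06 in MRC5. In each the 5 carcinoma libraries were more than 10 times the highest MRC5 library.

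For replication the windows of MCM3, RFC3 and MCM6 are shown as examples with an E2F site. They lie at chr6:52284693-52284992 on the minus strand, chr13:33817899-33818198 on the plus strand and chr2:135876394-135876693 on the minus strand, and capitals mark E2F sites (TTTCCCGC, GCGGGAAA or TTTGGCGC) and CCAAT boxes. RFC3 has no CCAAT box in this window, and none of the 3 has a CHR element.
MCM3: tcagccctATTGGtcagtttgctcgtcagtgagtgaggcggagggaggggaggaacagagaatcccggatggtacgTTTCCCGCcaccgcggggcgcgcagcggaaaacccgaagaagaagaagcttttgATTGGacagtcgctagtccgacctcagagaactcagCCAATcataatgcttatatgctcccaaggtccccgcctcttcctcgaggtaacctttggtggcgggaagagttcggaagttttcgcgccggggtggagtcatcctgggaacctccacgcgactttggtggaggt
RFC3: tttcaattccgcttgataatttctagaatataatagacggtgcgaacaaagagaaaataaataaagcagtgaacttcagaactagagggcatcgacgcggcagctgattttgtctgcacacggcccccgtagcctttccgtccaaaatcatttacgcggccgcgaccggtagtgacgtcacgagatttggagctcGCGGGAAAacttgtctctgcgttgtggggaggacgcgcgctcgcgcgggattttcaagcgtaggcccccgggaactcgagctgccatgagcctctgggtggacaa
MCM6: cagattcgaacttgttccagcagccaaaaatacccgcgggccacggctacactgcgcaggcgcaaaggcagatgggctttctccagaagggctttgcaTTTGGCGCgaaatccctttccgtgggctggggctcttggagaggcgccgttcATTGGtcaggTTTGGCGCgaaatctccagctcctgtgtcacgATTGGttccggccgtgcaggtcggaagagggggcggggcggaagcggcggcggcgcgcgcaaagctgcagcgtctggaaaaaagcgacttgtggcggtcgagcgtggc

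Of 39 tested genes of E2F, RB and cell cycle control, 13 were members higher (33.3%) and 4 lower (10.3%), beside 22.8% and 13.6% of all tested genes. Under the other scalings 9 to 16 were higher and 4 to 6 lower. CDKN2A, which encodes the inhibitor p16 and the MDM2 antagonist ARF from overlapping frames, stood at 140.2, 148 and 145 FPKM in DMS153, 129 and 127 in H209 and 15.9, 22.4 and 17.8 in MRC5. CDKN2C, the related inhibitor p18, stood at 46.1, 53.7 and 46.4 FPKM in DMS153, 54.2 and 58 in H209 and 0.471, 0.763 and 0.341 in MRC5. E2F2, an activator of replication genes, was at 8.17 to 10.3 FPKM in the carcinoma libraries and 0.0222 to 0.0403 in MRC5, and RPRM, a mediator of cell cycle arrest, at 7.81 to 14.7 FPKM in the carcinoma libraries and below 0.1 FPKM in every MRC5 library. Inhibitors of cyclin D kinases were among the higher members while CCND1 and CCND2 were among the lower. CCND2, cyclin D2, was below 0.1 FPKM in all 5 carcinoma libraries and stood at 18.8 to 19.4 FPKM in MRC5. GADD45A, a stress-induced brake, stood at 15.5 ± 2.38 in DMS153, 17.7 ± 3.46 in H209 and 139 ± 8.2 FPKM in MRC5. RB1 itself overlapped, at 4.49 ± 0.348 in DMS153, 23.5 ± 1.13 in H209 and 12.4 ± 1.43 FPKM in MRC5, with H209 above and DMS153 below MRC5.

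DNA repair gave 15 members higher of 36 tested (41.7%), beside 22.8% of all tested genes, and 14 to 17 under the other scalings. Of the 15, 8 remained members under all 4. CLSPN, the claspin that relays replication stress to CHK1, stood at 37.8, 39.3 and 34.5 FPKM in DMS153, 52.3 and 47.7 in H209 and 0.496, 0.674 and 0.537 in MRC5. RAD51AP1, which acts in homologous recombination, was at 58 to 82.5 FPKM in the carcinoma libraries and 1.24 to 3.59 in MRC5, TIMELESS, of the fork protection complex, at 40.2 to 51.4 FPKM in the carcinoma libraries and 2.78 to 3.11 in MRC5, and XRCC2, of homologous recombination, at 9.71 to 12.1 FPKM in the carcinoma libraries and 0.288 to 0.392 in MRC5.

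Genes that organise chromosomes gave members as well. Of 33 tested genes of chromatin architecture 14 were members higher (10 to 15 under the other scalings) and 1 lower. The shares were 42.4% and 3.03%, beside 22.8% and 13.6% of all tested genes. CDCA5, the sororin that holds cohesin on DNA, stood at 35.4 ± 8.15 in DMS153, 43.2 ± 0.462 in H209 and 1.3 ± 0.266 FPKM in MRC5. NCAPH, a subunit of condensin, was at 20.4 to 25.1 FPKM in the carcinoma libraries and 0.655 to 1.04 in MRC5, SMC2, of both condensins, at 46.5 to 70.0 FPKM in the carcinoma libraries and 3.2 to 4.14 in MRC5, and TMPO, the lamina-associated polypeptide, at 169 to 217 FPKM in the carcinoma libraries and 9.79 to 13.1 in MRC5. CTCF and the cohesin subunits RAD21 and SMC3, which shape loops and domains, were members too, with CTCF at 27.6, 30.7 and 25.8 FPKM in DMS153, 31.4 and 32.9 in H209 and 10.2, 10.1 and 10.1 in MRC5. LMNA, the lamin of differentiated and stiff cells, went the other way, at 84.6, 89 and 94.2 FPKM in DMS153, 76.7 and 70.6 in H209 and 334, 407 and 387 in MRC5. Lamins B1 and B2 were thus higher and lamin A/C lower in both lines.

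Of 45 tested Polycomb, BAF and other modifiers, 20 were members higher (14 to 18 under the other scalings) and 1, SMARCA1, lower. EZH2, the methyltransferase of Polycomb repressive complex 2, stood at 55.5, 59.4 and 52.5 FPKM in DMS153, 58.2 and 55.2 in H209 and 2.14, 2.23 and 1.81 in MRC5. HMGB2, a DNA-bending protein of dividing cells, was at 367 to 488 FPKM in the carcinoma libraries and 24.2 to 29.9 in MRC5, and TET3, which oxidises methylcytosine, at 9.7 to 13.2 FPKM in the carcinoma libraries and 0.993 to 1.37 in MRC5. ACTL6B, the subunit of the neuronal form of BAF, was at 11.8 to 16.4 FPKM and below 0.1 FPKM in every MRC5 library. Its counterpart of dividing cells, ACTL6A, was a member as well, at 82.3 ± 9.41 in DMS153, 83.8 ± 0.63 in H209 and 23.2 ± 2.67 FPKM in MRC5. RNA-binding proteins gave 14 members higher of 31 tested, 6 to 14 under the other scalings, with smaller differences. HNRNPA2B1, a splicing factor, stood at 1465, 1553 and 1429 FPKM in DMS153, 1046 and 1087 in H209 and 321, 353 and 324 in MRC5, and HNRNPD, SRSF2 and SNRPA at 1.68, 1.69 and 1.56 log2 units from MRC5. IGF2BP1 and QKI were lower, QKI at 16.3 ± 0.496 in DMS153, 13.4 ± 0.101 in H209 and 64.5 ± 11 FPKM in MRC5.

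Epithelial genes were above MRC5 in all 36 tested cases, also under the other scalings, with a median difference of 3.77 log2 units. The 17 members (12 to 19 under the other scalings) included adhesion molecules, protease inhibitors and transcription factors. SPINT1, CLDN4, MAL2, RAB25 and OVOL2 followed EPCAM, SPINT2, ST14 and KRT19. KRT8, a keratin of simple epithelia, differed in that MRC5 held it too, at 295 to 381 FPKM in the carcinoma libraries and 22.7 to 25.8 in MRC5. JUP, the plakoglobin of desmosomes, was at 58.7 to 75.2 FPKM in the carcinoma libraries and 14.5 to 17.9 in MRC5. CDH1, the cadherin of adherens junctions, was no member because DMS153 had more, at 202 ± 14 FPKM in DMS153 and 51.8 ± 2.73 in H209. SFTPB, a surfactant protein of alveolar cells, was at 0.312 to 1.58 FPKM in the carcinoma libraries and 0 to 0.016 in MRC5, and MUC1, a surface mucin, stood at 29.2 ± 1.93 in DMS153, 22 ± 1.99 in H209 and 1.83 ± 0.113 FPKM in MRC5.

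Neuroendocrine transcription factors were all above MRC5, and 25 to 27 of 27 were so under the other scalings. The 5 members were NKX2-1, SOX1, FOXA1, NKX2-2 and SOX11. SOX1, a factor of neural progenitors, stood at 32.1, 35.2 and 30.7 FPKM in DMS153, 43.8 and 42.9 in H209 and 0.0014, 0 and 0.00615 in MRC5. FOXA1, which opens chromatin in endodermal epithelium, stood at 43.1, 40.5 and 41.2 FPKM in DMS153, 33.2 and 31.3 in H209 and 0.537, 0.382 and 0.406 in MRC5. NKX2-2, of neural and islet cells, was listed at 0 in MRC5 and stood at 14 to 27.6 FPKM in the carcinoma libraries. Other factors that define the tumour class were not shared at equal level. INSM1 stood at 196 ± 36.3 FPKM in DMS153 and 294 ± 0.498 in H209 and NEUROD1 at 6.55 ± 0.413 FPKM in DMS153 and 72 ± 11.1 in H209, and both were at 0 in every MRC5 library. NEUROD1 thus differed more between the lines than INSM1.

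In neuroendocrine secretion, 29 of 32 genes were above MRC5 under every scaling examined and 8 were members, 5 to 7 under the other scalings. PTPRN2, a granule phosphatase-like receptor also called phogrin, stood at 58.6, 57.6 and 68.3 FPKM in DMS153, 63.3 and 56.8 in H209 and 0.00511, 0.0188 and 0.00527 in MRC5. SYP, the vesicle protein synaptophysin, stood at 24, 25.3 and 26.3 FPKM in DMS153, 32.4 and 34 in H209 and 0.0427, 0.166 and 0.0727 in MRC5. UNC13A, which primes vesicles for release, was at 23.6 to 41.1 FPKM in the carcinoma libraries and 0.0963 to 0.346 in MRC5, and SNAP25, of the fusion complex, at 51.7 to 72 FPKM in the carcinoma libraries and 1.74 to 2.23 in MRC5. The peptide genes GRP and CALCA were not among the members, while CHGA was. GRP, gastrin-releasing peptide, stood at 776 ± 19.2 FPKM in DMS153 and 166 ± 2.0 in H209, and CALCA at 391 ± 121 FPKM in DMS153 and 38.1 ± 1.57 in H209. The other members were RAB3A, STX1A and SV2A, so that the 8 were genes of vesicles, granules and release. UCHL1 and PAM were below MRC5 but differed between the lines, with UCHL1 at 269 ± 13 in DMS153, 554 ± 18 in H209 and 734 ± 49.6 FPKM in MRC5.

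Of 49 tested neuronal genes, 47 were above MRC5 (45 to 47 under the other scalings) and 16 were members (13 to 16). DPYSL5, a growth cone protein, stood at 44 ± 2.16 FPKM in DMS153 and 61.1 ± 4.78 in H209 and below 0.1 FPKM in every MRC5 library. CPLX1, which clamps vesicle fusion, was at 22.9 to 29.7 FPKM in the carcinoma libraries and 0.0454 to 0.226 in MRC5. STMN3, a microtubule regulator, stood at 91.1 to 106 FPKM in the carcinoma libraries and 4.48 to 5.85 in MRC5. SRRM4, the splicing activator of neuronal microexons, was at 7.27 to 9.47 FPKM in the carcinoma libraries and below 0.1 FPKM in every MRC5 library. REST, the repressor of neuronal genes, was below MRC5 in all carcinoma libraries, at 0.0486 ± 0.0398 in DMS153, 0.615 ± 0.245 in H209 and 8.02 ± 1.05 FPKM in MRC5, and was no member since the lines differed by -0.61 log2 units.

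Synthesis of cholesterol and fatty acids gave 9 members higher of 25 tested, 21 above MRC5 in all and a median difference of 1.65. Under the other scalings 4 to 9 were members and 17 to 23 above MRC5. HMGCS1, which makes the precursor of mevalonate, stood at 149, 127 and 160.1 FPKM in DMS153, 166 and 159 in H209 and 7.73, 6.74 and 7.09 in MRC5. SCD, a desaturase, was at 103 to 153 FPKM in the carcinoma libraries and 15 to 17.3 in MRC5, SQLE, squalene epoxidase, at 80.5 to 109 FPKM in the carcinoma libraries and 13.6 to 17.3 in MRC5, and MVK, mevalonate kinase, at 14.7 to 17.3 FPKM in the carcinoma libraries and 3.38 to 4.37 in MRC5. The regulator SREBF1 was a member too. In centrosome and cilia genes 7 of 19 tested were members (36.8%), beside 22.8% of all tested genes, and 6 to 9 were so under the other scalings. The 7 were all centrosomal genes except MYB. PLK4, which starts centriole duplication, stood at 25.2 ± 4.28 in DMS153, 22.6 ± 2.3 in H209 and 1.41 ± 0.338 FPKM in MRC5, CEP55, of abscission, at 51.9 ± 5.13 in DMS153, 38.2 ± 2.42 in H209 and 1.96 ± 0.543 FPKM in MRC5 and CEP72 at 21.7 ± 1.96 in DMS153, 22.5 ± 0.968 in H209 and 0.508 ± 0.171 FPKM in MRC5.

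In the MYC network 7 of 20 tested genes were members higher (35.0%), beside 22.8% of all tested genes, and 2 to 9 were so under the other scalings. The 7 were partners rather than MYC genes. MXD3, a MAX partner, stood at 15.6 ± 4.04 in DMS153, 14.3 ± 0.178 in H209 and 2.44 ± 0.459 FPKM in MRC5, and MNT, MXI1 and MLXIP differed by 0.64, 0.61 and 1.51 log2 units. MYCL was above MRC5, at 56 ± 7.84 FPKM in DMS153 and 152 ± 3.77 in H209, and MYC below it, but both differed between the lines. The Notch list had 7 members higher and 2 lower of 23 (30.4% and 8.70%), beside 22.8% and 13.6% of all tested genes. The other scalings gave 4 to 5 higher and 2 to 4 lower. DLL1, a ligand, stood at 40.2, 43.3 and 42.4 FPKM in DMS153, 37.4 and 32 in H209 and 0.177, 0.164 and 0.195 in MRC5, DTX1, a Notch-bound ubiquitin ligase, at 12.8 to 20.6 FPKM in the carcinoma libraries and 0 to 0.0446 in MRC5 and NRARP, a feedback inhibitor, at 4.98 to 8.4 FPKM in the carcinoma libraries and 0.0399 to 0.179 in MRC5. The receptor NOTCH4 was higher at 3.29 to 5.43 FPKM in the carcinoma libraries and 0.196 to 0.333 in MRC5, while NOTCH2 was lower at 1.19, 1.19 and 1.6 FPKM in DMS153, 1.36 and 1.26 in H209 and 26.5, 23.9 and 26.1 in MRC5. The receptors lay on both sides of MRC5.

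Collagens were below MRC5 in 21 of 22 tested cases (21 to 22 under the other scalings), with 12 members and a median difference of -5.57 log2 units. COL6A2, of type VI collagen, stood at 0.44, 0.398 and 0.495 FPKM in DMS153, 0.755 and 0.482 in H209 and 688, 778 and 720.2 in MRC5. COL3A1, of type III, was below 0.1 FPKM in all 5 carcinoma libraries and stood at 239 to 245 FPKM in MRC5, and COL6A1 was at 4.97 to 10.2 FPKM in the carcinoma libraries and 420.2 to 522 in MRC5. COL1A2 and COL6A3 were equally far below MRC5 and were left out by the line limit, at 6.58 ± 0.809 FPKM in DMS153 and 1.41 ± 0.374 in H209 for COL1A2. Of 37 matrix glycoproteins and proteoglycans 33 were below MRC5 and 11 were members. LUM, lumican, stood at 189.6 ± 2.27 FPKM in MRC5 and below 0.1 FPKM in all 5 carcinoma libraries, THBS1, thrombospondin, at 1.87, 1.25 and 2.88 FPKM in DMS153, 1.6 and 1.89 in H209 and 282, 274 and 298 in MRC5, and FBLN5, of elastic fibres, at 0.00031 to 0.0637 FPKM in the carcinoma libraries and 99.2 to 120.4 in MRC5. FN1, fibronectin, stood at 2.8 ± 0.522 in DMS153, 6.93 ± 0.793 in H209 and 2145 ± 114 FPKM in MRC5, with line means too far apart. SPOCK1, a testican, was the member in the other direction, at 21.1 to 28 FPKM in the carcinoma libraries and 6.67 to 9.0 in MRC5.

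Enzymes that cut and crosslink matrix followed the same course, with 37 of 39 below MRC5 and 15 members (11 to 15 under the other scalings). MMP1, interstitial collagenase, stood at 132 ± 8.2 FPKM in MRC5 and below 0.5 FPKM in all 5 carcinoma libraries. ADAMTS1, an aggrecan-cutting protease, was at 0 to 0.0174 FPKM in the carcinoma libraries and 159 to 179 in MRC5, and PLAT, tissue plasminogen activator, at 0.12 to 0.341 FPKM in the carcinoma libraries and 177 to 199 in MRC5. Of 29 integrins and matrix receptors 25 were below MRC5 under every scaling examined and 12 were members. ITGB5, a vitronectin receptor subunit, stood at 1.33, 0.751 and 1.2 FPKM in DMS153, 1.4 and 0.966 in H209 and 128, 144 and 139 in MRC5, and MRC2, a collagen uptake receptor, at 0.95 to 1.49 FPKM in the carcinoma libraries and 140.0 to 149 in MRC5. ITGB1, the common integrin chain, was a member with more left in the carcinoma lines, 97.5 ± 4.96 in DMS153, 84.2 ± 0.0414 in H209 and 997 ± 35.6 FPKM in MRC5. DDR1 and CDH2 were the members higher (0 to 2 in the list under the other scalings), with CDH2, N-cadherin, at 41.8 ± 1.44 in DMS153, 38.4 ± 0.317 in H209 and 25.9 ± 0.959 FPKM in MRC5.

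Contractile and focal adhesion genes numbered 42 tested, of which 38 were below MRC5 (37 to 38 under the other scalings) and 18 were members (10 to 17). TAGLN, transgelin of smooth muscle and myofibroblasts, stood at 4.25, 3.97 and 3.96 FPKM in DMS153, 5.3 and 4.53 in H209 and 1151, 1435 and 1164 in MRC5. MYL9, a myosin light chain, stood at 0.125, 0.0673 and 0.241 FPKM in DMS153, 0 and 0 in H209 and 279, 346 and 309 in MRC5. CAV1 and CAV2, the caveolins, are neighbours on chromosome 7, with CAV1 at 0.139, 0.0447 and 0.341 FPKM in DMS153, 0.0518 and 0.0258 in H209 and 274, 288 and 272 in MRC5 and CAV2 at 0.00222 to 0.311 FPKM in the carcinoma libraries and 181 to 215 in MRC5. Differences ran from these down to widely expressed genes, such as ACTN4 at 167 ± 16.4 in DMS153, 177 ± 7.51 in H209 and 299 ± 20.7 FPKM in MRC5. TAGLN2 was the member higher, at 274 ± 6.49 in DMS153, 230.4 ± 3.91 in H209 and 195 ± 12.7 FPKM in MRC5, and under the other scalings the list had at most 1. VIM, vimentin, was below MRC5 throughout and left out by the line limit.

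SRF binds the CArG box in promoters of contractile genes. With only A or T between its outer pairs, the box was found in 3 of 16 windows of the contractile members (18.8%), beside 1.06% of tested genes and 1.61% of all lower members. The 3 were ACTG2, TPM4 and FLNA, chosen after their values were seen, and windows of ACTG2 at chr2:73892758-73893057 on the plus strand and FLNA at chrX:154374585-154374884 on the minus strand show them. Capitals mark CArG boxes (CCTTATATGG, CCTTTTTAGG and CCAATTAAGG), and in ACTG2 also a TATA box (TTTATA) and a CHR spelling (TTCAAA). The CArG box of FLNA overlaps a CCAAT box.
ACTG2: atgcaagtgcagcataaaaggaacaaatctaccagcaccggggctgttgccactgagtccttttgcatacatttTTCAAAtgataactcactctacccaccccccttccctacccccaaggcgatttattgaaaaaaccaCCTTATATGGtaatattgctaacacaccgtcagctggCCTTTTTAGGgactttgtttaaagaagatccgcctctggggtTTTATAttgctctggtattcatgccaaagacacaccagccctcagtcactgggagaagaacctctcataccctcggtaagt
FLNA: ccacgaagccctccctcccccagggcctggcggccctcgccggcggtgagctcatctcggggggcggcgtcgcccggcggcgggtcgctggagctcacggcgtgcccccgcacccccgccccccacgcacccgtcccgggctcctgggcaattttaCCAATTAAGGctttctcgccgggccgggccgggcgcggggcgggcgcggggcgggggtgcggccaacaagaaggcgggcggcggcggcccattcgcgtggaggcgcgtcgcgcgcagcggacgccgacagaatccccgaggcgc

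ACTG2, the enteric smooth muscle actin, stood at 0.0241, 0.0579 and 0.010 FPKM in DMS153, 0.33 and 0.199 in H209 and 69.3, 79.7 and 80.0 in MRC5. FLNA, filamin A, stood at 90.1, 98.8 and 90.2 FPKM in DMS153, 91.2 and 102 in H209 and 657, 753 and 698 in MRC5, so the 2 genes differed in how much remained in the carcinoma lines. TAGLN, ACTA2 and other contractile members had no such box in these windows or no window, which says only that these letters were not there.

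Transcription factors of mesenchyme made up the list with the highest share of lower members, 19 of 33 tested (16 to 19 under the other scalings), and 15 remained members under all 4. FOXF1 (ENSG00000103241.5, chromosome 16, 86544133 to 86548076), a factor of lung mesenchyme, stood at 0.0070, 0.000229 and 0.00807 FPKM in DMS153, 0.0114 and 0.0305 in H209 and 106, 123 and 119 in MRC5. FOXF2 was below 0.1 FPKM in all 5 carcinoma libraries and at 27.2 to 28.1 FPKM in MRC5, TCF21, of lung and kidney mesenchyme, was at 0 to 0.0068 FPKM in the carcinoma libraries and 20.3 to 22.4 in MRC5, and OSR1 at 0.23 to 0.499 FPKM in the carcinoma libraries and 27.1 to 30.2 in MRC5. Levels of these factors in MRC5 were moderate, and in the carcinoma lines most were near 0, where line means on the log2(FPKM + 1) scale cannot lie far apart. Over all lower tested members, 820 (31.6%) were below 1 FPKM in all 5 carcinoma libraries. ZEB1, a repressor of epithelial genes, stood well above 0, at 4.77 ± 0.424 in DMS153, 7.12 ± 0.692 in H209 and 72.6 ± 8.85 FPKM in MRC5. HEY1, TCF4 and KLF4 were members higher, HEY1 at 10.6 ± 1.79 in DMS153, 8.23 ± 0.699 in H209 and 0.688 ± 0.0333 FPKM in MRC5.

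YAP, its partners and their targets gave 14 lower members of 28 tested and 1 higher, AMOTL1 (12 to 15 and 1 to 2 under the other scalings). YAP1, the coactivator, stood at 0.425, 0.388 and 0.435 FPKM in DMS153, 0.00868 and 0.0224 in H209 and 59.8, 49.4 and 57.1 in MRC5. WWTR1, which encodes TAZ, was at 0.635 ± 0.338 in DMS153, 0.64 ± 0.0111 in H209 and 21.3 ± 2.72 FPKM in MRC5. AXL, a receptor kinase and YAP target, was below 0.1 FPKM in all 5 carcinoma libraries and stood at 85.7 to 87.8 FPKM in MRC5, and DLC1, a GTPase-activating protein, was at 0.0264 to 0.259 FPKM in the carcinoma libraries and 63.4 to 78.4 in MRC5. CTGF and CYR61, the usual reporters of this pathway, were below MRC5 but differed between the lines. TEAD1, the DNA-binding partner, overlapped, at 56.1 ± 1.95 in DMS153, 55.4 ± 5.32 in H209 and 49 ± 6.2 FPKM in MRC5. Among AP-1 and immediate early factors, 6 of 23 were lower members (26.1%), beside 13.6% of all tested genes. None was a member higher, and the other scalings gave 6 to 9 lower and 0 to 1 higher. FOSL1 stood at 0.0797, 0.115 and 0.232 FPKM in DMS153, 0.208 and 0.309 in H209 and 68.5, 82.8 and 77.9 in MRC5, and EGR1, an SRF target, at 4.73 to 9.24 FPKM in the carcinoma libraries and 28.5 to 39.8 in MRC5. ELK3, a cofactor of SRF, was at 2.5 to 4.47 FPKM in the carcinoma libraries and 18.7 to 19.7 in MRC5 and MYOCD was below 0.1 FPKM in all 5 carcinoma libraries, with 0.927 to 2.34 FPKM in MRC5.

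In TGF-beta signalling 8 of 32 tested genes were lower members and 2 higher (25.0% and 6.25%), beside 13.6% and 22.8% of all tested genes. The other scalings gave 8 to 12 and 1 to 3. TGFBR2, the type II receptor, stood at 0.363, 0.231 and 0.324 FPKM in DMS153, 0.262 and 0.181 in H209 and 55.7, 53.1 and 57.1 in MRC5. LTBP1, which tethers latent TGF-beta, was at 0.058 to 0.633 FPKM in the carcinoma libraries and 179 to 192 in MRC5, FSTL3 at 1.1 to 2.6 FPKM in the carcinoma libraries and 45.7 to 59.5 in MRC5 and SMAD3 at 2.58 ± 0.0368 in DMS153, 2.07 ± 0.325 in H209 and 50.6 ± 5.98 FPKM in MRC5. SMAD4 and SMAD2, the shared and the activin-type transducers, were higher, SMAD4 at 72.8 ± 1.77 in DMS153, 86.4 ± 11.5 in H209 and 38.2 ± 1.49 FPKM in MRC5. Of 27 receptor tyrosine kinases 8 were lower members (8 to 10 under the other scalings) and 1, EPHB3, higher (0 to 3). The shares were 29.6% and 3.70%, beside 13.6% and 22.8% of all tested genes. PDGFRB stood at 0.00015, 0 and 0.104 FPKM in DMS153, 0.000762 and 0.00928 in H209 and 100.4, 90.5 and 93.6 in MRC5, PDGFRA at 82.7 ± 7.14 FPKM in MRC5 and below 0.5 FPKM in all 5 carcinoma libraries, and TEK at 0.0124 to 0.0559 FPKM in the carcinoma libraries and 27.8 to 30.8 in MRC5. FGFR1 kept a higher level in the carcinoma lines, 35.7 ± 3.92 in DMS153, 28.5 ± 2.66 in H209 and 142 ± 12.4 FPKM in MRC5.

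Of 28 cytokines, chemokines and their receptors 14 were lower members (13 to 14 under the other scalings), beside 13.6% of all tested genes. TNFRSF10B, a TRAIL death receptor, stood at 0.184, 0.181 and 0.353 FPKM in DMS153, 0.0442 and 0.159 in H209 and 134, 125 and 124 in MRC5. OSMR, a receptor of oncostatin M, was at 0.017 to 0.0387 FPKM in the carcinoma libraries and 88.8 to 100.3 in MRC5, TNFSF4 at 0.0179 to 0.317 FPKM in the carcinoma libraries and 71.8 to 75.7 in MRC5 and IL6 at 0.0216 to 0.199 FPKM in the carcinoma libraries and 23.7 to 25.7 in MRC5. CXCR4, a chemokine receptor, was the member higher (0 to 2 in the list under the other scalings), at 16.2 to 26.2 FPKM in the carcinoma libraries and below 0.1 FPKM in every MRC5 library. Of 13 genes of insulin-like growth factor signalling 5 were lower members (3 to 5 under the other scalings), among them PAPPA at 0.114 to 0.57 FPKM in the carcinoma libraries and 52.6 to 74.3 in MRC5 and IRS1 at 0.369 to 0.788 FPKM in the carcinoma libraries and 19.4 to 21 in MRC5. IGFBP5 was lower but abundant on both sides, 131 ± 33.5 in DMS153, 156 ± 4.58 in H209 and 919 ± 12.9 FPKM in MRC5. In the WNT list 4 were higher members and 6 lower of 30 (13.3% and 20.0%), beside 22.8% and 13.6% of all tested genes. Its counts were 1 to 4 and 2 to 7 under the other scalings. SFRP1, a secreted antagonist, stood at 0.449, 0.564 and 0.495 FPKM in DMS153, 0.156 and 0.155 in H209 and 174, 172 and 183 in MRC5, WNT5A at 0.901 to 1.85 FPKM in the carcinoma libraries and 64.8 to 80.0 in MRC5, DKK1 at 0 to 0.502 FPKM in the carcinoma libraries and 27.2 to 28.5 in MRC5 and FZD3, a receptor, at 3.73 to 5.95 FPKM in the carcinoma libraries and 0.00945 to 0.0349 in MRC5.

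Of 24 tested genes of antigen presentation 18 lay below MRC5 in every carcinoma library, beside 22.6% of all tested genes. Only 3 were members (12.5%), near the 13.6% of all tested genes, and 2 to 7 were so under the other scalings. B2M, the common light chain of class I molecules, stood at 553, 491 and 673 FPKM in DMS153, 470.2 and 488 in H209 and 3522, 3835 and 3604 in MRC5. HLA-B and HLA-C were far lower in H209 than in DMS153, at 52.6 ± 9.99 in DMS153, 1.42 ± 0.255 in H209 and 342 ± 27.3 FPKM in MRC5 for HLA-B. MICA, a stress ligand of natural killer cells, was below 0.1 FPKM in all 5 carcinoma libraries and stood at 36.9 to 45 FPKM in MRC5. The interferon list had 10 lower and 4 higher members of 36 (27.8% and 11.1%), beside 13.6% and 22.8% of all tested genes. The counts ranged from 6 to 11 and from 2 to 4 under the other scalings. TRIM22, an antiviral ubiquitin ligase, stood at 0.0317, 0.0244 and 0.0137 FPKM in DMS153, 0.0089 and 0.0334 in H209 and 73.9, 63.9 and 68.6 in MRC5. IRF1 was at 6.75 to 8.25 FPKM in the carcinoma libraries and 41.2 to 44.8 in MRC5 and IFIT3 at 0.221 to 0.316 FPKM in the carcinoma libraries and 7.1 to 7.48 in MRC5, while MX1 and IRF7 were higher, MX1, an antiviral GTPase, at 4.77 to 5.59 FPKM in the carcinoma libraries and 1.26 to 1.82 in MRC5. CASP1, the inflammatory caspase, was below 0.5 FPKM in all 5 carcinoma libraries and stood at 52 to 58.2 FPKM in MRC5. BAX, a pore-forming killer of mitochondria, was lower at 48.8 ± 5.75 in DMS153, 67.3 ± 0.0269 in H209 and 148 ± 13.1 FPKM in MRC5. Of 29 tested genes in the list of the BCL2 family and apoptosis, 4 were lower members (13.8%), near the 13.6% of all tested genes, and 15 overlapped. The other scalings gave 4 to 6 lower members. The BCL2 list had no member higher, 0 to 2 under the other scalings, and BCL2 and BCL2L11 were above MRC5 but differed between the lines.

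Genes of caveolae, endocytosis and lysosomes were below MRC5 in 26 of 28 tested cases and 14 were members (10 to 14 under the other scalings). EHD2, which stabilises caveolae, stood at 0.0245, 0.016 and 0.104 FPKM in DMS153, 0.0631 and 0.0285 in H209 and 137, 158 and 156 in MRC5. SQSTM1, the autophagy receptor p62, was at 34.6 to 52.2 FPKM in the carcinoma libraries and 462 to 519.7 in MRC5. TFEB, the activator of lysosomal genes, was the member higher, at 10.3 ± 1.43 in DMS153, 7.16 ± 0.378 in H209 and 2.69 ± 0.33 FPKM in MRC5. Glutathione and redox genes gave 11 lower members of 32 and none higher (9 to 13 and 0 to 1 under the other scalings). NNMT, which methylates nicotinamide, stood at 0.0532, 0.0698 and 0.229 FPKM in DMS153, 0.0459 and 0.19 in H209 and 149.7, 162 and 153 in MRC5, GPX8 at 0.0945 to 0.377 FPKM in the carcinoma libraries and 155 to 158 in MRC5 and GPX1 at 18.1 ± 1.22 in DMS153, 24.1 ± 2.15 in H209 and 186 ± 22.3 FPKM in MRC5. In the annexin and S100 list 17 of 22 genes were below MRC5 (17 to 21 under the other scalings), beside 22.6% of all tested genes, and 5 were members (5 to 9), or 22.7% beside 13.6%. Among them were S100A6 at 29 to 52.2 FPKM in the carcinoma libraries and 582 to 695 in MRC5 and S100A16 at 0.169 to 0.312 FPKM in the carcinoma libraries and 55.7 to 74.1 in MRC5. Genes of the unfolded protein and amino acid response gave 7 lower members of 27 (25.9%), beside 13.6% of all tested genes, and 6 to 8 under the other scalings. HSPA5, the chaperone BiP, stood at 96.3, 89.6 and 101 FPKM in DMS153, 84.5 and 82.7 in H209 and 305, 325 and 307 in MRC5. ASNS, asparagine synthetase, was at 68.2 to 92 FPKM in the carcinoma libraries and 328 to 351 in MRC5.

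Ribosomal protein genes were lower by a smaller margin. None of 36 was above MRC5, 28 were below it and 17 were members, with a median difference of -0.94 log2 units. Under the other scalings 20 to 35 were below MRC5, 7 to 21 were members and at most 1 was above. RPL32 stood at 257, 309 and 257 FPKM in DMS153, 258 and 295 in H209 and 1014, 1215 and 1026 in MRC5, RPL15 at 215 to 264 FPKM in the carcinoma libraries and 744 to 839 in MRC5 and RPS23 at 413 to 595 FPKM in the carcinoma libraries and 1295 to 1641 in MRC5. Copies of these genes share sequence with pseudogenes, so their reads can be split. Nuclear genes of the respiratory chain had 3 members higher and 7 lower of 33 (9.09% and 21.2%), beside 22.8% and 13.6% of all tested genes. Under the other scalings 1 to 6 were higher and 2 to 11 lower. COX7A1, the muscle-type subunit of cytochrome c oxidase, had the largest difference of these, at 0.195, 0.255 and 0.235 FPKM in DMS153, 0.755 and 0.522 in H209 and 6.01, 8.81 and 9.06 in MRC5. In glycolysis 4 of 23 (17.4%) were lower members, near the 13.6% of all tested genes, and 2 to 6 were so under the other scalings. ALDOA, aldolase A, was 1 of them, at 342 ± 23.8 in DMS153, 369 ± 14.4 in H209 and 863 ± 84 FPKM in MRC5.

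The most abundant members were mostly genes active in every cell type. TUBA1A, an alpha tubulin of developing neurons, stood at 1557, 1589 and 1794 FPKM in DMS153, 1309 and 1502 in H209 and 342, 449 and 375 in MRC5. TUBA1B, its ubiquitous relative, was at 1063 to 1459 FPKM in the carcinoma libraries and 409 to 507 in MRC5, HNRNPA1 at 749 to 925 FPKM in the carcinoma libraries and 316 to 345 in MRC5 and NONO, a nuclear RNA-binding protein, at 493 to 684 FPKM in the carcinoma libraries and 215 to 253 in MRC5. Near-identical tubulin copies can exchange reads. On the lower side FTH1 and FTL, the ferritin chains that store iron, led by level. FTL stood at 464, 514 and 467 FPKM in DMS153, 515 and 542 in H209 and 7438, 9564 and 8187 in MRC5. FTH1 stood at 1582, 1677 and 1621 FPKM in DMS153, 1793 and 1838 in H209 and 10132, 12029 and 10488 in MRC5. EEF1A1, the elongation factor, was at 3421 to 4094 FPKM in the carcinoma libraries and 7379 to 8405 in MRC5 and TPT1, a growth-related translation protein, at 976 to 1175 FPKM in the carcinoma libraries and 3316 to 3689 in MRC5. The 2 ferritin genes differed by -4.05 and -2.66 log2 units.

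By position in hg19, lower members were most frequent on the short arm of chromosome 3, with 151 of 464 tested genes (32.5%), beside 13.6% of all tested genes. The arms 4p with 26.1% and 5q with 168 of 676 (24.9%) came next, then 8p with 21.6%. The arm 3p had the highest share of lower members under 3 of the 4 other scalings and came in place 2 under the TPM scaling, at 18.3%, where 5q led with 19.2%. Higher members were most frequent on 5p, with 58 of 175 (33.1%) beside 22.8% of all tested genes, and least frequent on 18p (5.75%), 17p (6.17%) and 5q (9.62%). Under the TPM scaling 5p came in place 11, at 18.9%. Copy number was not measured. Members on 3p included TGFBR2 and CTNNB1, the latter encoding beta-catenin at 25.8 to 35.8 FPKM in the carcinoma libraries and 74.3 to 79.2 in MRC5.

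**Figure D5:**
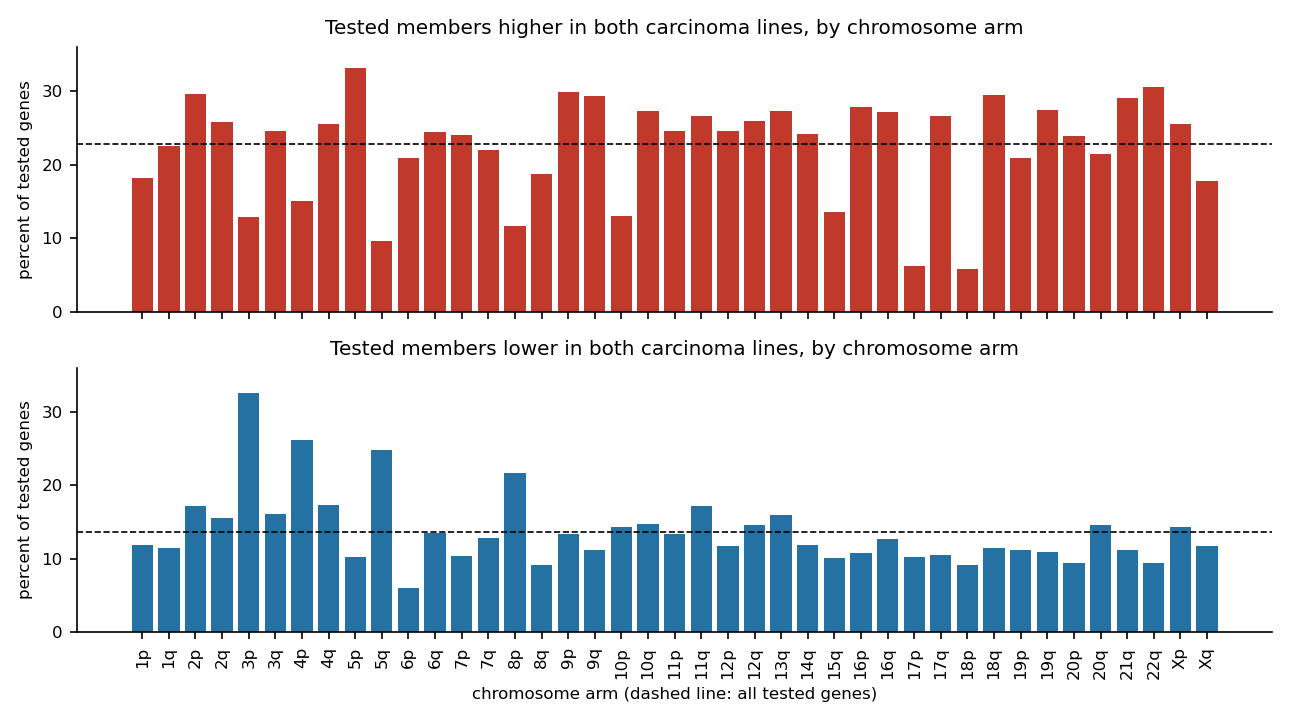
Bars give, for each chromosome arm with at least 20 tested genes (x axis), the percent of tested genes that were members higher (upper panel) and lower (lower panel), and the dashed lines give the shares over all tested genes, 22.8% and 13.6%. The bar of 3p stands highest in the lower panel at 32.5%, and that of 5p highest in the upper panel at 33.1%.

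Adjacent members of 1 direction formed runs. The longest higher runs had 10 tested genes, on chromosome 13 from SOX1 to MCF2L-AS1 (112721913 to 113754053) and on chromosome 14 from MTHFD1 to PLEKHG3 (64854749 to 65213610). In the former, MCF2L, a guanine nucleotide exchange factor, differed by 5.60 log2 units. Its rows include clone-named and LINC-named genes and MCF2L-AS1, the antisense row of MCF2L. Strand was not given, so overlapping rows can share reads, and the rows of a run are not independent genes. How often runs of this length arise at these member shares was not tested. The longest lower run held 9 genes of the gamma protocadherin cluster on chromosome 5 (140743898 to 140892546), which lay in a single Hi-C domain in each of the 3 lines. These genes share their constant exons, so reads among them are uncertain. A lower run of 8 tested genes on chromosome 11 went from HBD to TRIM22 and took in TRIM5, TRIM6 and TRIM34. Its globin rows included HBG2, the fetal gamma globin, at 5.64e-06 to 0.886 FPKM in the carcinoma libraries and 1.8 to 3.76 in MRC5.

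Hi-C domains were called from 1 library per line on a 20 kb grid, and the position of members in them is a description. The midpoint of a gene lay within 40 kb of a domain end in all 3 lines for 859 of 4342 higher (19.8%) and 597 of 2593 lower tested members (23.0%), beside 3808 of 19000 tested genes (20.0%). The same domain, with ends within 40 kb, surrounded the gene in all 3 lines for 20.1%, 21.4% and 19.7%. Protein-coding genes made up 3213 of 3780 higher and 2116 of 2349 lower tested members matched to RefSeq (90.1% of the latter), beside 85.4% of all tested genes matched. Among members below the filter the share was 44.3%.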

How the data were processed

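RNA was measured in 8 libraries (MRC5 and DMS153 with 3 each, H209 with 2) and Hi-C in 1 library per line. Per the submitters' processing notes, TopHat2 2.1.0, Cufflinks 2.2.0, Bowtie2, HOMER 4.8 and hg19 were used, without settings. The authors deposited FPKM with confidence intervals per gene and library, with no counts, so depth is known only relatively, from the widths of those intervals. They also deposited domain lists with a score per domain, which was not used. Annotation release, strand and RNA selection: not given in the sources used here.

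From these values log2(FPKM + 1) was computed, the rule applied, and limma 3.58.1 (R 4.3.3) fitted with 1 mean per line, with Benjamini-Hochberg adjustment over 19066 genes, after a check on simulated data. Other steps used Python 3.11.15, pandas 2.3.3 and numpy 2.4.6. The members and lists were chosen with earlier results of these data known. Genes were named by rule: the 15 largest differences per direction with at least 5 FPKM on the higher side, up to 4 members of each of 44 lists per direction, the 10 highest levels, and the 3 on either side of each edge. Other list members, among them PLK1, CDC20, CDK1, ACTG2, FLNA, KRT8, JUP, SNAP25, STMN3, SRRM4, CTCF, ACTL6A, ITGB1, ACTN4, ZEB1, WWTR1, SMAD3, FGFR1 and MCF2L, were named after their values were seen, as were genes named as no members. Libraries were not paired by replicate number. Correlations of same-numbered libraries were -0.0118 to 0.123 and those of differently numbered ones -0.123 to 0.0541. Values were centred within lines of 2 or 3 libraries, so these correlations depend on one another and cannot settle whether numbers pair libraries. The DMS153 and H209 differences share the MRC5 libraries. Leaving out libraries, other pseudocounts, filters, limits and scalings were tried. Promoter windows are RefSeq GRCh38.p14 and were joined to hg19 genes by gene identifier, then by symbol, then by a unique synonym, and not by position. Some items are not reported here.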

Additional observations from a re-analysis of the deposited data

How the results depend on the processing

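With FPKM and no counts, precision is that of the deposited intervals, which reached 10.6% to 13.6% to either side at 1 to 10 FPKM. The 9504 higher and 3963 lower members became 4343 and 2598 among tested genes, 4945 and 8164 after quantile normalization, 4356 and 2405 when the deposited intervals had to be apart, and 2817 and 1929 with at least 5 FPKM on the higher side, a setting chosen after the data were seen. Apart from quantile normalization, for which the cause was not tested, these settings keep fewer genes by construction. Leaving out 1 library gave 9855 to 10310 higher and 4061 to 4412 lower members, and 6206 to 6260 higher and 2756 to 2815 lower limma calls. With a replicate block the calls were 6212 and 2776. Of 1760 list counts under alternatives, 1555 stayed within 1.5 times the reported count and 205 did not. List counts covered tested genes only, so the filter setting could not change them. An empty count that stayed empty was scored as unchanged, and settings that only remove genes cannot fill it. The 1555 is thus partly fixed in advance and is no measure of stability.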
